A study of Mus musculus with 26 samples.

Results

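The 45 genes described here act at the G2/M transition and in mitosis. They were chosen by name, with earlier results of these data known. They comprise CDK1 with its cyclins and CDC25 phosphatases, the kinases PLK1 and Aurora A, the chromosomal passenger complex, the spindle checkpoint, kinetochore proteins, mitotic kinesins, other spindle proteins, regulators and substrates of the anaphase-promoting complex (APC/C), cytokinesis proteins and mitotic chromosome proteins. All 45 were among the 15629 genes named in the MC38 table and the 15300 named in the T cell table, and all 45 passed the filter on low counts in both, among 14835 genes tested in the tumour cells and 13753 in the T cells.

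Poly(A) RNA had been sequenced from 17 libraries of MC38/gp100 cells, a mouse colon adenocarcinoma line carrying the melanoma antigen gp100, and from 9 libraries of pmel-1 T cells, which come from transgenic mice with a T cell receptor against gp100. The MC38 groups were wild-type (WT) cells and cells with an Mtap knockout (KO), each given DMSO, 0.5 uM GSK3326595 or 0.5 uM MRTX1719 for 5 days. The T cells were labelled wild-type, were kept in IL-2 and received the same 3 agents at the same dose for 3 days. Each group had 3 libraries, except WT cells with MRTX1719, which had 2, replicates 1 and 3. GSK3326595 inhibits the arginine methyltransferase PRMT5, and MRTX1719 binds PRMT5 together with methylthioadenosine (MTA), the metabolite that the enzyme encoded by Mtap clears. The design asks how the 2 inhibitors act in tumour cells with and without Mtap and in T cells. The labels do not say whether the KO line is a single clone, and they give no age for the mice. They give the GSK compound another last digit in replicates 2 and 3 of its groups in the treatment field, while the titles give 1 name for all 3.

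As background, genes of late G2 and mitosis are transcribed late in the cell cycle, so their RNA in a bulk sample follows the share of cells in G2 and mitosis as well as the rate of transcription in each cell. Many of them are controlled through the cell cycle genes homology region (CHR), an element close to the transcription start that is bound by the MuvB complex. With RB-like pocket proteins and E2F4, MuvB forms the repressor DREAM, which p21 (Cdkn1a) favours; with B-MYB (Mybl2) and FOXM1 it activates the same promoters. CCAAT boxes bound by NF-Y commonly lie upstream of the CHR. In bulk RNA such as this, more cells in G2 and mitosis and more RNA of these genes per cell cannot be told apart.

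The start sites of these genes are shown first because the members share an element there that their choice by name did not use. RefSeq's promoter table (build GRCm38.p6, 250 bases before and 50 after each start) held 38 of the 45 members. Ccna2, Cdc25c, Aurkb, Incenp, Kif20a, Tpx2 and Cdca2 were not in it. The CHR core TTTGAA, searched on both strands, was in the window of 27 of the 38 members (71.1%) and of 20.2% of all 27025 genes in the table. From 60 bases before the start onward, 25 members (65.8%) held it, against 6.36% of all genes and 4.29% of the 10299 genes that were tested in MC38 cells and matched to the table. The CCAAT box, searched on both strands, was in 27 members (71.1%) and in 41.1% of all genes, and both motifs were in 22 members (57.9%) and in 7.97% of all genes. The variant TTCGAA was in 5 members (13.2%) and in 1.8% of all genes. A match is a description of these letters and not of binding.

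The sites of 8 members that hold a CHR core and are named below are printed 5′ to 3′ on the strand of the gene. The CHR core (TTTGAA) and any CCAAT box (CCAAT, or ATTGG on the other strand) are in capitals. Each is 30 bases long, and the first base of the core lies at the position given, with the start itself counted as 0.
Plk1 (chr7:122159453-122159482, plus strand, core at 30): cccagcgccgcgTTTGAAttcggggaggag
Aurka (chr2:172370521-172370550, minus strand, core at 32): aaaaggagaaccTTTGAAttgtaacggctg
Ccnb2 (chr9:70421533-70421562, minus strand, core at 4): agcggcgcggtaTTTGAAtcgcggaccggg
Cdk1 (chr10:69352910-69352939, minus strand, core at -15): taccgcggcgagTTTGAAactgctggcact
Cdc20 (chr4:118437344-118437373, minus strand, core at -18): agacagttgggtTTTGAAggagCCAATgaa
Cenpa (chr5:30666890-30666919, plus strand, core at 16): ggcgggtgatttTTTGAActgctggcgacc
Kif20b (chr19:34922353-34922382, plus strand, cores at 7 and 13): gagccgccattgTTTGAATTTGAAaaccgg
Kif23 (chr9:61946780-61946809, minus strand, core at 2): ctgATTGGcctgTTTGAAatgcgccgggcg
In Kif20b 2 cores follow each other without a gap.

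The 120 bases before the start are printed for 2 members with several CCAAT boxes, marked in capitals with the same 2 motifs.
Ccnb2 (chr9:70421555-70421674, minus strand): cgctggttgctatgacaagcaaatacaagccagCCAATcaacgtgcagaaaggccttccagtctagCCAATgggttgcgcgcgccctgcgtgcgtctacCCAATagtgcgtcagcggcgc
Cdk1 (chr10:69352913-69353032, minus strand): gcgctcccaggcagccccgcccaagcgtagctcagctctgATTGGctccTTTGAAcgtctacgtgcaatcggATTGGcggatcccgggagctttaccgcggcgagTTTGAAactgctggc
Ccnb2 has 3 CCAAT boxes here, at -87, -54 and -21. Cdk1 has a second CHR core at -71 beside the one at -15, and CCAAT boxes at -80 and -48. Ccnb1, whose window held no TTTGAA, has CCAAT boxes at -99 and -67. The other matched members without TTTGAA were Birc5, Bub1, Cdc25b, Cenpe, Kif18a, Mad2l1, Nuf2, Nusap1, Pttg1 and Sgo1.

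**Figure D1:**
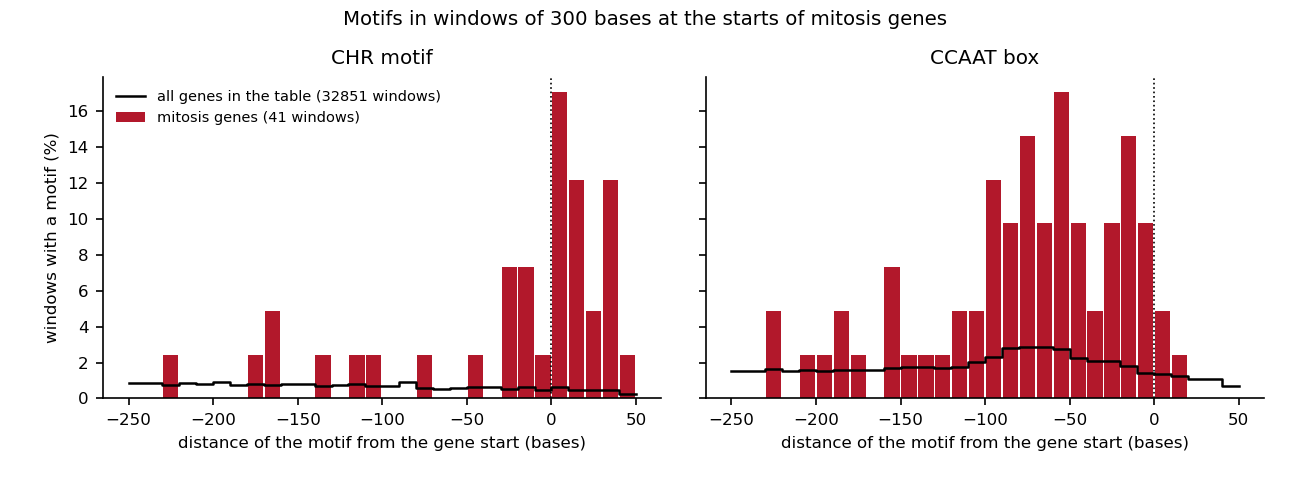
Percentage of windows with a CHR core (left) or a CCAAT box (right) in bins of 10 bases along the distance from the gene start in bases; red bars are the 41 windows of the 38 matched mitosis genes and the black line is all 32851 windows of the table. The CHR bars crowd around the start, and the CCAAT bars lie mostly upstream of it.

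Levels are given as CPM, counts scaled to a common library size with TMM factors, and are compared only within a gene. A log2 fold change is followed by its standard error. Adjusted p-values come from edgeR's quasi-likelihood test after Benjamini-Hochberg adjustment across every tested gene, and "rose" or "fell" is used only where that p was under 0.05. Library totals were 19302768 to 27786226 counts for the tumour cells and 13813406 to 20772699 counts for the T cells. The labels do not say whether replicates were separate cultures, so the p-values measure the spread between libraries, which may be technical. Mtap RNA stood at 388, 394 and 397 CPM in the WT DMSO libraries and at 264, 274 and 276 CPM in the KO DMSO libraries, so it was lower in every KO library but present (-0.53 ± 0.0222, adjusted p = 1.65e-49), and gene counts do not check the loss of the protein. The 9 T cell markers summed to 3946 to 5379 CPM in the T cell libraries, and of other cell types 5 B cell markers summed to 3.27 to 6.84 CPM, 5 myeloid markers to 5.94 to 10.4 CPM and Cd4 with Foxp3 to 0.95 to 1.85 CPM. The 3 NK markers summed to 154 to 168 CPM with DMSO, 194 to 202 CPM with GSK3326595 and 185 to 191 CPM with MRTX1719. In T cells 6 fibroblast and endothelial markers summed to 28.7 to 34.4 CPM with DMSO and 45.8 to 55.9 CPM with GSK3326595. With MRTX1719 these 6 summed to 25.4 to 30.6 CPM. In MC38 cells 6 epithelial markers summed to 14.5 to 62.6 CPM, with Epcam at 0 in 16 of 17 libraries and Cdh1 under 1 CPM, and 6 fibroblast and endothelial markers summed to 2431 to 6083 CPM.

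Without an inhibitor, the mitosis genes were mostly higher in the Mtap KO line than in the WT line. Under DMSO, 33 of the 45 rose, 6 fell and 6 did not pass the test, with a median log2 fold change of 0.25 over the 45 against 0.01 over all tested genes. Over all tested genes, 36.2% were called higher in KO cells and 37% lower, so calls in either direction were common. The members that rose most were Plk1, Kif20a, Ccnb2, Cdc25c and Hmmr, and those that fell most were Mad2l1, Anln, Pttg1, Nuf2 and Kif23. These genes encode, in the same order, the Polo kinase of mitotic entry, a kinesin of the central spindle, a B-type cyclin, a phosphatase that activates CDK1, a spindle protein, a spindle checkpoint protein, a scaffold of the cleavage furrow, securin, a subunit of the outer kinetochore and another kinesin of the central spindle.

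**Figure D2:**
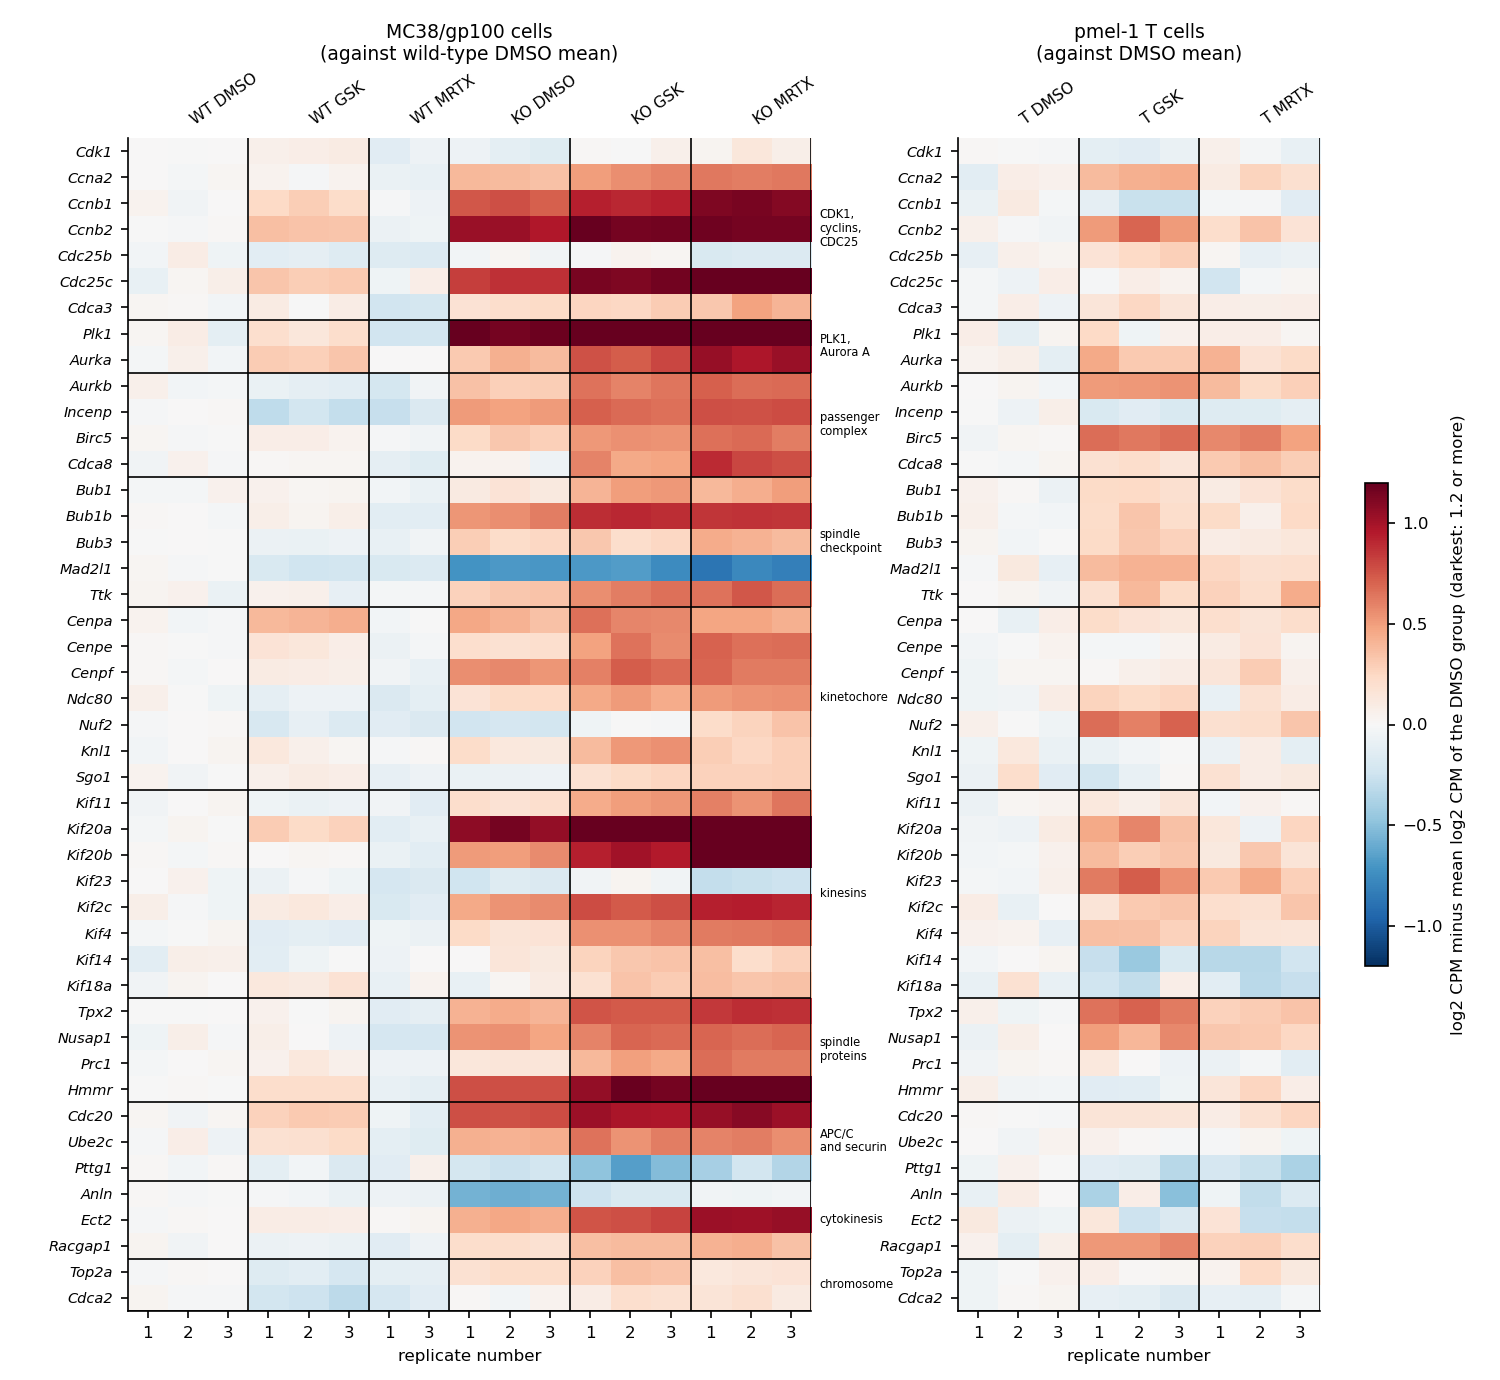
Heat map of log2 CPM in each library (columns, by replicate number) minus the mean of the DMSO group, WT DMSO for MC38 cells and DMSO for T cells, for the 45 mitosis genes (rows, by role); red is higher, blue is lower, and the darkest shades are 1.2 or beyond. The 9 KO libraries are red for most rows, and Mad2l1 and Pttg1 are blue in all 9 of them.

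Among the genes of mitotic entry, CDK1 and its partners did not move together. Plk1, whose kinase drives entry into mitosis and spindle assembly, stood at 28.9, 30.2 and 26.2 CPM in the WT DMSO libraries and at 67.4, 62.9 and 64.4 CPM in the KO DMSO libraries. Every KO library was more than 2 times as high as every WT library, and the log2 fold change was 1.184 ± 0.0432 (adjusted p = 7.55e-56). Ccnb1, cyclin B1, the activating subunit of CDK1, went from 110.5, 104 and 108 CPM to 179, 184 and 177 CPM, a log2 fold change of 0.75 ± 0.0277 (adjusted p = 3.93e-55). Ccnb2, its close relative, had a log2 fold change of 1.01 ± 0.0333, and Ccna2, the cyclin of S phase and early mitosis, one of 0.37 ± 0.0247. Cdk1 itself, the catalytic subunit, was at 121, 120.1 and 121 CPM in WT and 115, 112 and 109 CPM in KO libraries, which do not overlap. Its log2 fold change was -0.11 ± 0.0301 (adjusted p = 8.44e-04), and with upper quartile scaling this call was lost. Cdc25c, which removes the inhibitory phosphates from CDK1, rose by 0.86 ± 0.0558 on the log2 scale, whereas Cdc25b had a value of -0.02 ± 0.0345 (adjusted p = 0.618). Aurka, the centrosome and spindle kinase, went from 47.2, 49.9 and 46.8 CPM to 59.5, 64.6 and 62.5 CPM, a log2 fold change of 0.38 ± 0.0387 (adjusted p = 1.06e-16).

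Of the chromosomal passenger complex, which corrects attachments of chromosomes and directs cytokinesis, Incenp, Aurkb and Birc5 rose, with log2 fold changes of 0.50, 0.31 and 0.28. Cdca8, borealin, the fourth subunit, was at 59.4, 63.5 and 60.4 CPM in WT and 62.9, 62.7 and 58.6 CPM in KO libraries, which overlap (0.01 ± 0.0382, adjusted p = 0.912). The spindle checkpoint, which holds back anaphase until all chromosomes are attached, was split. Bub1, Bub1b, Bub3 and Ttk rose, by 0.13 to 0.57 on the log2 scale, and Bub3, which loads checkpoint proteins onto kinetochores, went from 99.3, 99.5 and 99.1 CPM to 122, 116 and 118 CPM (0.25 ± 0.0306). Mad2l1, MAD2, the inhibitor of CDC20, went the other way, from 115, 113 and 113 CPM to 69.1, 70.2 and 69.8 CPM, the largest fall among the 45 genes (-0.70 ± 0.0325, adjusted p = 8.03e-45). No KO library reached the lowest WT library for Mad2l1.

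Of 7 kinetochore genes, 5 rose and Nuf2 fell. Cenpa, the histone H3 variant that marks centromeres, went from 62.6, 59.3 and 60.2 CPM to 83.6, 81.1 and 77.5 CPM (0.41 ± 0.0353, adjusted p = 1.91e-21), with no overlap between the lines. Ndc80 and Nuf2, whose products pair in the complex that binds microtubules, differed in direction, with log2 fold changes of 0.21 ± 0.0354 and -0.22 ± 0.0400. Of 8 kinesins, 5 rose, Kif23 fell (-0.19 ± 0.0287), and Kif14 (0.09) and Kif18a (0.02) did not pass the test. All 4 spindle proteins rose (Tpx2 0.42, Nusap1 0.52, Prc1 0.14 and Hmmr 0.77 on the log2 scale). Anln, anillin, the scaffold of the contractile ring, fell from 482, 475 and 478 CPM to 322, 318 and 322 CPM (-0.58 ± 0.0210), while Ect2 and Racgap1, which switch on RhoA at the same place, rose. Top2a, the topoisomerase that untangles sister chromatids, went from 696, 709.8 and 703 CPM to 798, 817 and 817 CPM (0.21 ± 0.0195), and Cdca2 (0.01) did not pass the test.

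Other lists were compared between the lines in the same fit. Of 32 G1/S genes, which serve DNA replication, 5 were higher in KO cells and 24 lower, with a median log2 fold change of -0.35. Of 71 further mitosis genes, 38 were higher and 29 lower (median 0.12), led by Psrc1 (1.57 ± 0.0676), a spindle protein, and Oip5 (-0.72 ± 0.0844), a protein of CENP-A loading. Of 18 regulators of G2/M transcription, 4 were higher and 12 lower. Mybl2 and Foxm1, the activators named above, were lower in KO cells, with log2 fold changes of -0.85 ± 0.0349 and -0.35 ± 0.0317. Lin54, the MuvB subunit that contacts the CHR, had a value of -1.17 ± 0.0467. Of 14 tested brakes on mitotic entry, 6 were higher and 6 lower, and Cdkn1a, p21, went from 54.1, 52.3 and 51.01 CPM to 10.4, 10.3 and 9.77 CPM (-2.37 ± 0.0573, adjusted p = 3.78e-77). The summed level of 4 genes used as signs of arrest or damage (Cdkn1a, Btg2, Mdm2 and Ccng1) was 331 to 333 CPM in WT and 174 to 183 CPM in KO libraries. The summed level of 6 fibroblast and endothelial markers was 2592 to 2628 CPM in WT and 5913 to 6083 CPM in KO libraries (4 of 6 higher, none lower), and that of 6 epithelial markers was 23 to 25.1 CPM and 14.5 to 16.1 CPM. The part of these lists in the rise of the mitosis genes was not tested. With 1 line of each genotype, the genotype and the line cannot be told apart.

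**Figure D3:**
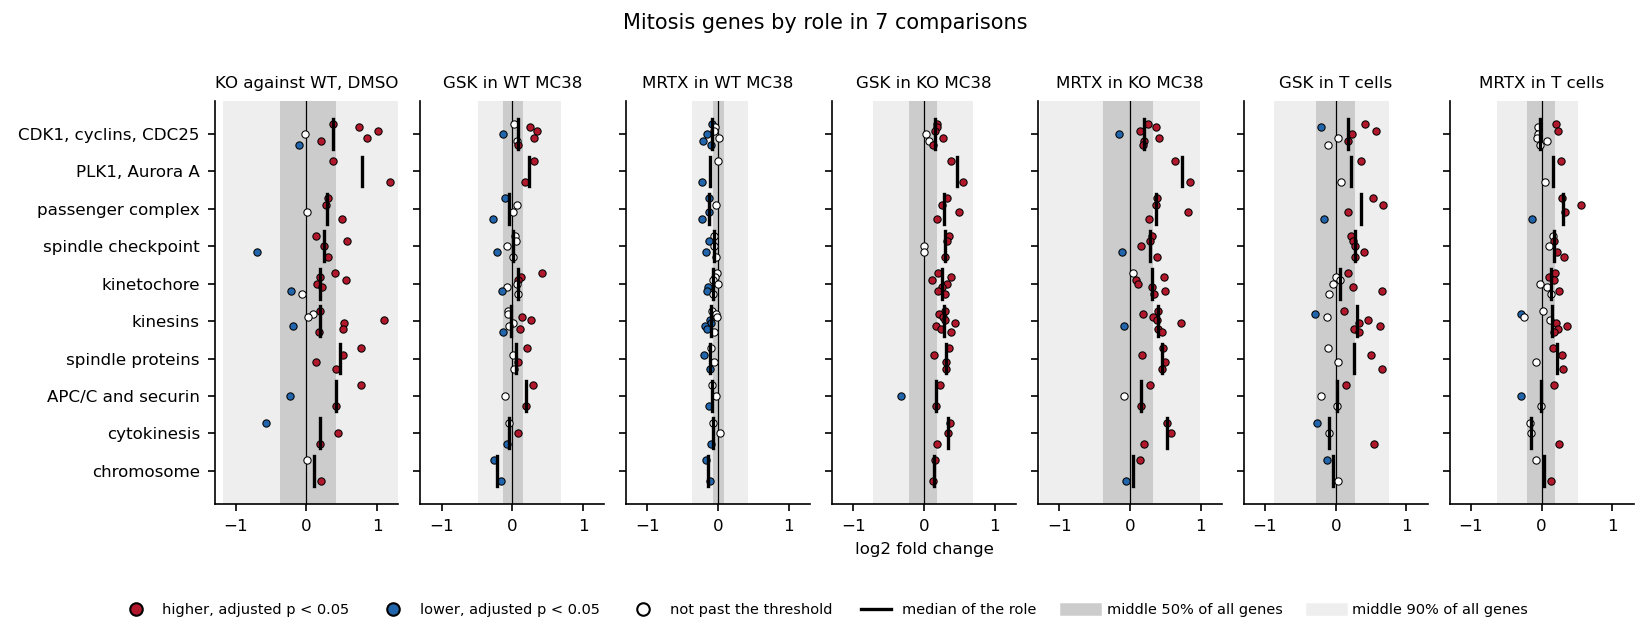
Log2 fold change (horizontal axis) of each of the 45 mitosis genes by role (rows) in 7 comparisons (panels); filled points passed the test, black ticks are the median of the role, and grey bands hold the middle 50% and 90% of all tested genes. In KO cells nearly all points lie to the right of 0 under either inhibitor, and in WT cells with MRTX1719 none of the filled points does.

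In WT MC38 cells GSK3326595 was followed by higher levels of some mitosis genes and lower levels of others. Of the 45, 17 rose, 9 fell and 19 did not pass the test, with a median log2 fold change of 0.04. Over all tested genes 20.1% were called higher and 21.1% lower, so the share of members that fell was near the background. Cenpa, Ccnb2, Aurka, Cdc25c and Cdc20 rose most, and Incenp, Cdca2, Mad2l1, Top2a and Nuf2 fell most. Cenpa stood at 79.6, 80.6 and 82.3 CPM with GSK3326595, above every WT DMSO library (0.41 ± 0.0345, adjusted p = 2.81e-21). Ccnb1 stood at 127, 132 and 125 CPM (0.25 ± 0.0283), Aurka at 59.4, 58.4 and 60.4 CPM (0.31 ± 0.0381) and Plk1 at 32.6, 31.3 and 32.95 CPM (0.18 ± 0.0477, adjusted p = 0.00109), each above all 3 DMSO libraries. The rise of Cdk1, to 126, 128 and 129 CPM, was small (0.08 ± 0.0291, adjusted p = 0.0152), and DESeq2 did not call it. Without replicate 3 of GSK3326595 it was lost as well.

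The genes that fell in WT cells with GSK3326595 came from several roles. Incenp, the scaffold of the passenger complex, went from 89.4, 90.5 and 90.9 CPM to 73.3, 77.5 and 74.2 CPM (-0.27 ± 0.0321, adjusted p = 1.63e-12), with no overlap. Cdca2, which brings a phosphatase to anaphase chromosomes, had a log2 fold change of -0.26 ± 0.0415, and Mad2l1 one of -0.21 ± 0.0303. Top2a stood at 633, 642 and 612 CPM, below all 3 DMSO libraries (-0.16 ± 0.0196, adjusted p = 2.67e-12). Bub3 was at 94.4, 94.01 and 95.02 CPM, also below the DMSO libraries, and its adjusted p of 0.0509 missed the threshold. Of the 71 further mitosis genes 9 rose and 24 fell, with a median log2 fold change of -0.06, so they leaned the other way from the members. G1/S genes mostly fell, 20 of 32 against 2 that rose, as did 8 of 18 regulators (2 rose), with Foxm1 at -0.20 ± 0.0306 and Mybl2 at -0.34 ± 0.0323. Cdkn1a had a log2 fold change of -0.36 ± 0.0427. The 6 epithelial markers went from 23 to 25.1 CPM with DMSO to 39.7 to 41.4 CPM with GSK3326595 (2 of 4 tested higher). The 6 fibroblast and endothelial markers summed to 2561 to 2584 CPM with GSK3326595 (3 higher, 1 lower). The part of these lists in the changes of the members was not tested.

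In KO cells nearly all mitosis genes rose with GSK3326595. Of the 45, 40 rose and Pttg1 alone fell, and Bub3 (0.01), Mad2l1 (0.00), Cdc25b (0.03) and Cdca3 (0.06) did not pass the test. The median log2 fold change was 0.25 over the 45 and 0.01 over all tested genes, of which 27.7% were called higher and 25.1% lower. Plk1, Cdca8, Kif20b, Aurka and Kif4 rose most. Plk1 went from 67.4, 62.9 and 64.4 CPM to 96.8, 91.2 and 97.3 CPM (0.55 ± 0.0353, adjusted p = 1.52e-30). Cdca8, the passenger subunit that had not differed between the lines beyond its spread, went from 62.9, 62.7 and 58.6 CPM to 91.99, 83.6 and 84.7 CPM (0.50 ± 0.0361, adjusted p = 9.49e-26). All GSK3326595 libraries lay above all DMSO libraries for both genes.

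Other members had smaller changes with GSK3326595 in KO cells. Aurka stood at 81.6, 79.4 and 83.6 CPM (0.39 ± 0.0354), Ccnb1 at 205, 201 and 205 CPM (0.18 ± 0.0258) and Cenpa at 95.99, 91.3 and 90.4 CPM (0.20 ± 0.0330). Cdk1 rose to 122, 120 and 126 CPM (0.13 ± 0.0299, adjusted p = 9.24e-05) and Top2a to 852, 902 and 892 CPM (0.12 ± 0.0193, adjusted p = 2.21e-08). Bub3, at 124, 115 and 118 CPM, overlapped the DMSO libraries (0.01 ± 0.0298, adjusted p = 0.889). Pttg1, securin, the inhibitor of separase that is destroyed at anaphase, went from 27.98, 27.1 and 27.9 CPM to 23.2, 20.5 and 22.6 CPM (-0.33 ± 0.0569, adjusted p = 3.30e-07). By role, all 8 kinesins, all 7 kinetochore genes, all 4 passenger genes, all 4 spindle proteins and all 3 cytokinesis genes rose, as did 5 of 7 genes of mitotic entry and 3 of 5 checkpoint genes. G1/S genes rose as well, 22 of 32 with 5 that fell (median log2 fold change 0.22), and 50 of the 71 further mitosis genes rose with 9 that fell. Cit, the citron kinase of cytokinesis, had the highest log2 fold change of those 71 (0.65 ± 0.0360), and Cenpm, of the inner kinetochore, the lowest (-0.77 ± 0.110). Cdkn1a rose by 0.81 ± 0.0695 on the log2 scale, to 18.9, 17.9 and 16.7 CPM. The 4 genes of arrest or damage, Cdkn1a among them, summed to 176 to 185 CPM (2 higher, 2 lower). The 6 epithelial markers went from 14.5 to 16.1 CPM with DMSO to 60 to 62.6 CPM with GSK3326595 (2 of 4 tested higher), and the 6 fibroblast and endothelial markers to 5183 to 5399 CPM (2 higher, 3 lower). The part of these lists in the rise was not tested.

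MRTX1719 lowered mitosis genes slightly in WT cells. None of the 45 rose in edgeR's test, 22 fell and 23 did not pass, with a median log2 fold change of -0.09. Few genes were called at all, 3.62% higher and 3.91% lower over all tested genes. At an unadjusted p under 0.05, edgeR had 0 members higher and 28 lower, and DESeq2 called 0 higher and 17 lower. The largest falls were in Plk1, Incenp, Cdca3, Nusap1 and Kif23. Plk1 stood at 24.2 and 24.3 CPM, below all 3 DMSO libraries (-0.23 ± 0.0563, adjusted p = 0.00254). Incenp stood at 74.4 and 80.02 CPM (-0.23 ± 0.0357), Top2a at 649.5 and 652 CPM (-0.11 ± 0.0219) and Cdk1 at 109.6 and 115 CPM (-0.10 ± 0.0330, adjusted p = 0.0388), each also below every DMSO library. Ccnb1 (106 and 103 CPM, log2 fold change -0.04), Aurka (48.1 and 48.2 CPM, 0.00) and Cenpa (59.1 and 60.4 CPM, -0.02) overlapped the DMSO libraries and did not pass. Bub3, at 93.5 and 96.4 CPM, lay below the DMSO libraries with an adjusted p of 0.281. The group has 2 libraries. Without replicate 1 of MRTX1719 8 members were called, 7 of them among the 22, and without replicate 3 14 were called. Plk1 and Cdk1 were among those lost without replicate 1, and Plk1 was also lost without replicate 2 of DMSO. Of the 22 calls, 15 to 18 were kept with upper quartile scaling, without the filter, with DESeq2 or with a replicate block. None of the 22 changed sign in these settings. With MRTX1719 the 6 epithelial markers summed to 25.4 to 25.9 CPM in WT cells (1 of 4 tested higher). The 6 fibroblast and endothelial markers summed to 2431 to 2459 CPM (0 higher, 2 lower).

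In KO cells MRTX1719 raised nearly all of the mitosis genes. Of the 45, 39 rose, Cdc25b, Mad2l1, Kif23 and Top2a fell, and Cenpa (0.05) and Pttg1 (-0.09) did not pass the test. The Kif23 call (-0.08 ± 0.0295) was lost without replicate 2 of DMSO and without replicate 1 of MRTX1719. The median log2 fold change was 0.32 over the 45 and 0.02 over all tested genes, of which 37% were called higher and 33.6% lower. Plk1, Cdca8, Kif20b, Aurka and Ect2 rose most. Plk1 reached 114, 120.1 and 116 CPM, from 67.4, 62.9 and 64.4 CPM with DMSO (0.85 ± 0.0348, adjusted p = 3.40e-50). Cdca8 reached 114, 106 and 104 CPM (0.82 ± 0.0355, adjusted p = 1.29e-46), above every other MC38 group. Kif20b, a kinesin of the late spindle and of abscission whose start has 2 adjacent CHR cores, went from 142, 140.5 and 147 CPM to 233, 239 and 239 CPM (0.73 ± 0.0265).

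Other regulators of entry rose by less with MRTX1719 in KO cells. Aurka stood at 98.8, 93.9 and 98.4 CPM (0.64 ± 0.0350), Ccnb1 at 233, 236 and 229.6 CPM (0.37 ± 0.0257) and Cdk1 at 123, 132 and 127 CPM (0.19 ± 0.0301, adjusted p = 1.31e-08). Ccnb1 libraries of the 3 KO groups did not overlap and were highest with MRTX1719. Ect2, the exchange factor that activates RhoA in cytokinesis, rose by 0.59 ± 0.0241 on the log2 scale. Anln, which was lower in KO than in WT cells under DMSO, rose by 0.53 ± 0.0211. Bub3 stood at 135, 133 and 129 CPM (0.16 ± 0.0297). Cenpa, at 84.5, 84.1 and 81.7 CPM, overlapped the DMSO libraries (0.05 ± 0.0339, adjusted p = 0.184). Top2a fell, to 767, 775 and 790.1 CPM, below the 3 DMSO libraries but by little (-0.06 ± 0.0195, adjusted p = 0.00375). Mad2l1 fell further, to 61.9, 66.3 and 64.3 CPM (-0.12 ± 0.0354, adjusted p = 0.00204).

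The lists beside the members moved in KO cells with MRTX1719 too. G1/S genes rose in 23 of 32 cases and fell in 7, with a median log2 fold change of 0.38. Of the 71 further mitosis genes, 54 rose and 11 fell. Ska3, of the kinetochore complex that tracks microtubule ends, rose most (0.77 ± 0.0454), while Cenpm (-1.67 ± 0.129) and Knstrn, a protein of the mitotic spindle (-1.44 ± 0.0488), fell most. Among 18 regulators, 7 rose and 5 fell, and Foxm1 (0.00) and Mybl2 (0.01) did not pass the test (adjusted p = 0.965 and 0.821). Lin54 rose by 0.51 ± 0.0508 on the log2 scale and Nfya, an NF-Y subunit, had a value of -0.49 ± 0.0378. Cdkn1a rose from 10.4, 10.3 and 9.77 CPM to 30.6, 30.8 and 29.9 CPM (1.59 ± 0.0634, adjusted p = 3.83e-51), still under every WT library. The 4 genes of arrest or damage, Cdkn1a among them, summed to 194 to 201 CPM (2 higher, 2 lower). The 6 epithelial markers summed to 59.5 to 61 CPM (3 of 4 tested higher) and the 6 fibroblast and endothelial markers to 4059 to 4143 CPM (1 higher, 4 lower), and the part of these lists in the rise was not tested. In members with a CHR core the median log2 fold change was 0.29 (27 genes), and in matched members without it 0.33 (11 genes). For KO against WT cells the same medians were 0.25 and 0.02. With GSK3326595 they were 0.06 and 0.04 in WT cells, 0.26 and 0.19 in KO cells and 0.17 and 0.22 in T cells. With MRTX1719 they were -0.09 and -0.06 in WT cells and 0.15 and 0.13 in T cells. These are descriptions with no test.

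**Figure D4:**
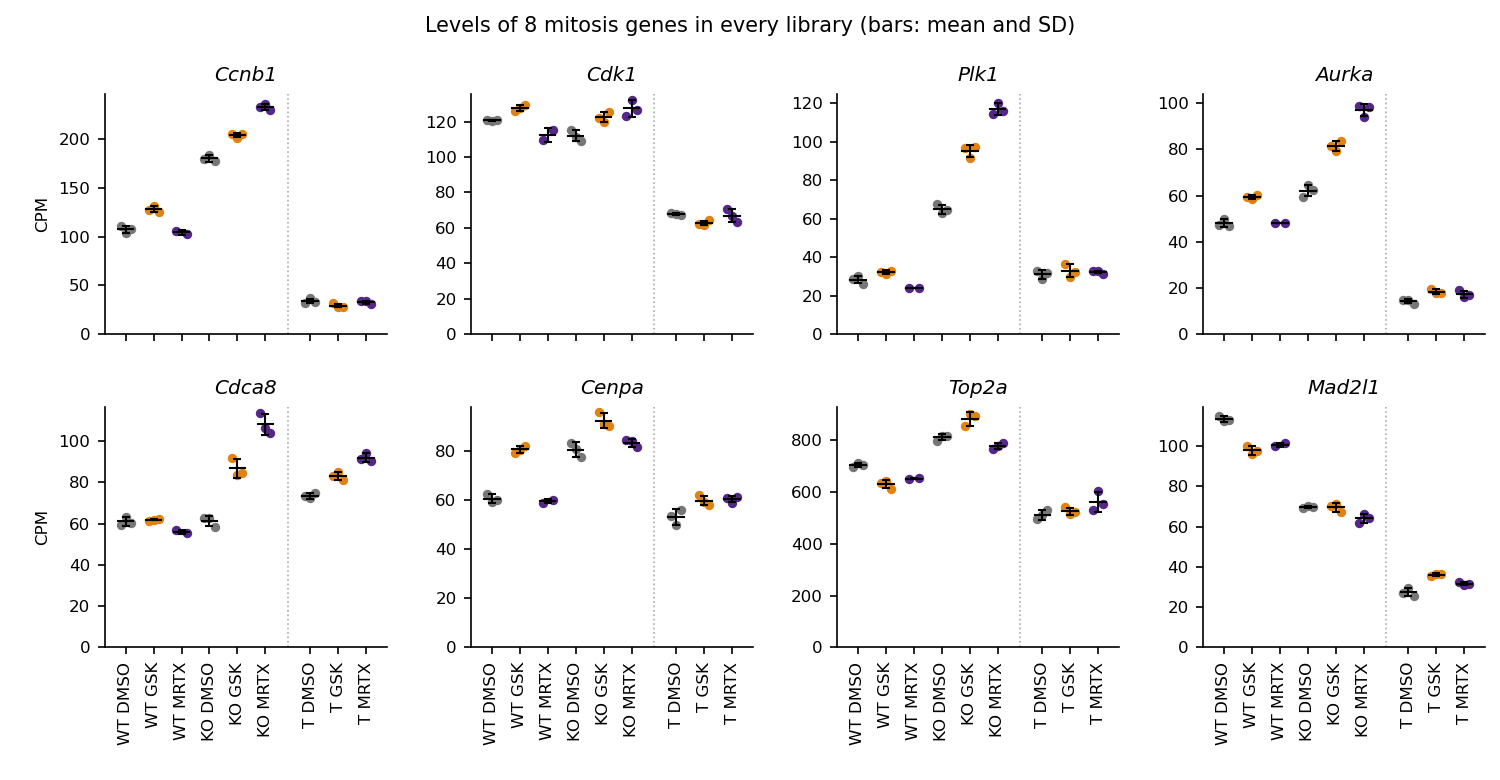
CPM (vertical axis, from 0) of 8 mitosis genes in every library of the 6 MC38 groups and, right of the dotted line, the 3 T cell groups; points are libraries and bars the mean and SD. Plk1, Aurka, Ccnb1 and Cdca8 are highest in KO cells with MRTX1719, Mad2l1 is lowest of the MC38 groups there, and the 2 tables were normalized separately.

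Whether an inhibitor acted differently in KO and WT cells was tested as an interaction. For MRTX1719 the log2 fold change was higher in KO than in WT cells for 39 of the 45 genes and lower for none, with a median difference of 0.40. Over all tested genes 30.3% were called higher and 27.9% lower. No member was lower by edgeR even at an unadjusted p under 0.05, where 39 were higher, and DESeq2 called 38 higher and 0 lower. Plk1 differed most (1.08 ± 0.0660, adjusted p = 1.77e-32), followed by Cdca8 (0.94 ± 0.0552), Kif20b (0.83 ± 0.0426), Nuf2 (0.65 ± 0.0583) and Aurka (0.63 ± 0.0561). Nuf2 was lower in KO than in WT cells under DMSO. With MRTX1719 it stood at 63.9, 65.7 and 69.2 CPM in KO cells and at 49.8 and 48.4 CPM in WT cells. Ccnb1 (0.41 ± 0.0413), Cdk1 (0.29 ± 0.0446) and Bub3 (0.23 ± 0.0454) differed less, and Cenpa (0.07 ± 0.0526, adjusted p = 0.242) and Top2a (0.05 ± 0.0293, adjusted p = 0.126) did not pass. Of the 22 genes that fell in WT cells, 18 (81.8%) rose in KO cells, which is 46.2% of the 39 that rose there, and the remaining 4 fell in both lines. Since 39 of all 45 members rose in KO cells, that share is near the share of all members. In the same interaction test 50 of the 71 further mitosis genes were higher and 10 lower (median difference 0.36). Of the 32 G1/S genes 22 were higher and 3 lower (median difference 0.40).

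For GSK3326595 the effect was higher in KO cells for 31 of the 45 genes and lower for 3, with a median difference of 0.22. Over all tested genes 22% were called higher and 20.2% lower. Kif4, a chromokinesin, differed most (0.51 ± 0.0472, adjusted p = 2.19e-18), followed by Cdca8 (0.48 ± 0.0520), Incenp (0.45 ± 0.0430), Aurkb (0.42 ± 0.0478) and Kif20b (0.42 ± 0.0399). All 4 passenger genes were among the 31. Incenp moved in opposite directions in the lines. It went from 90.2 ± 0.760 to 75.02 ± 2.23 CPM in WT cells (mean ± SD, n = 3 each) and from 128 ± 1.68 to 145 ± 2.61 CPM in KO cells (n = 3 each). The 3 genes with a lower effect in KO cells were Pttg1 (-0.22 ± 0.0766, adjusted p = 0.0142, not called by DESeq2), Cenpa (-0.22 ± 0.0479) and Ccnb2 (-0.19 ± 0.0457). Cenpa and Ccnb2 rose in both lines and were higher in KO than in WT cells under DMSO. Plk1 (0.37 ± 0.0596) and Top2a (0.28 ± 0.0275) had a higher effect in KO cells, while Ccnb1, Cdk1, Aurka and Bub3 did not pass, with values from -0.08 to 0.08. The 17 genes that rose in WT cells all rose in KO cells (42.5% of the 40 there), and 7 of the 9 that fell in WT cells rose in KO cells, where 40 of all 45 members rose. In the GSK3326595 interaction 47 of the 71 further mitosis genes were higher and 8 lower (median difference 0.25). Of the 32 G1/S genes 24 were higher and 0 lower (median difference 0.30).

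**Figure D5:**
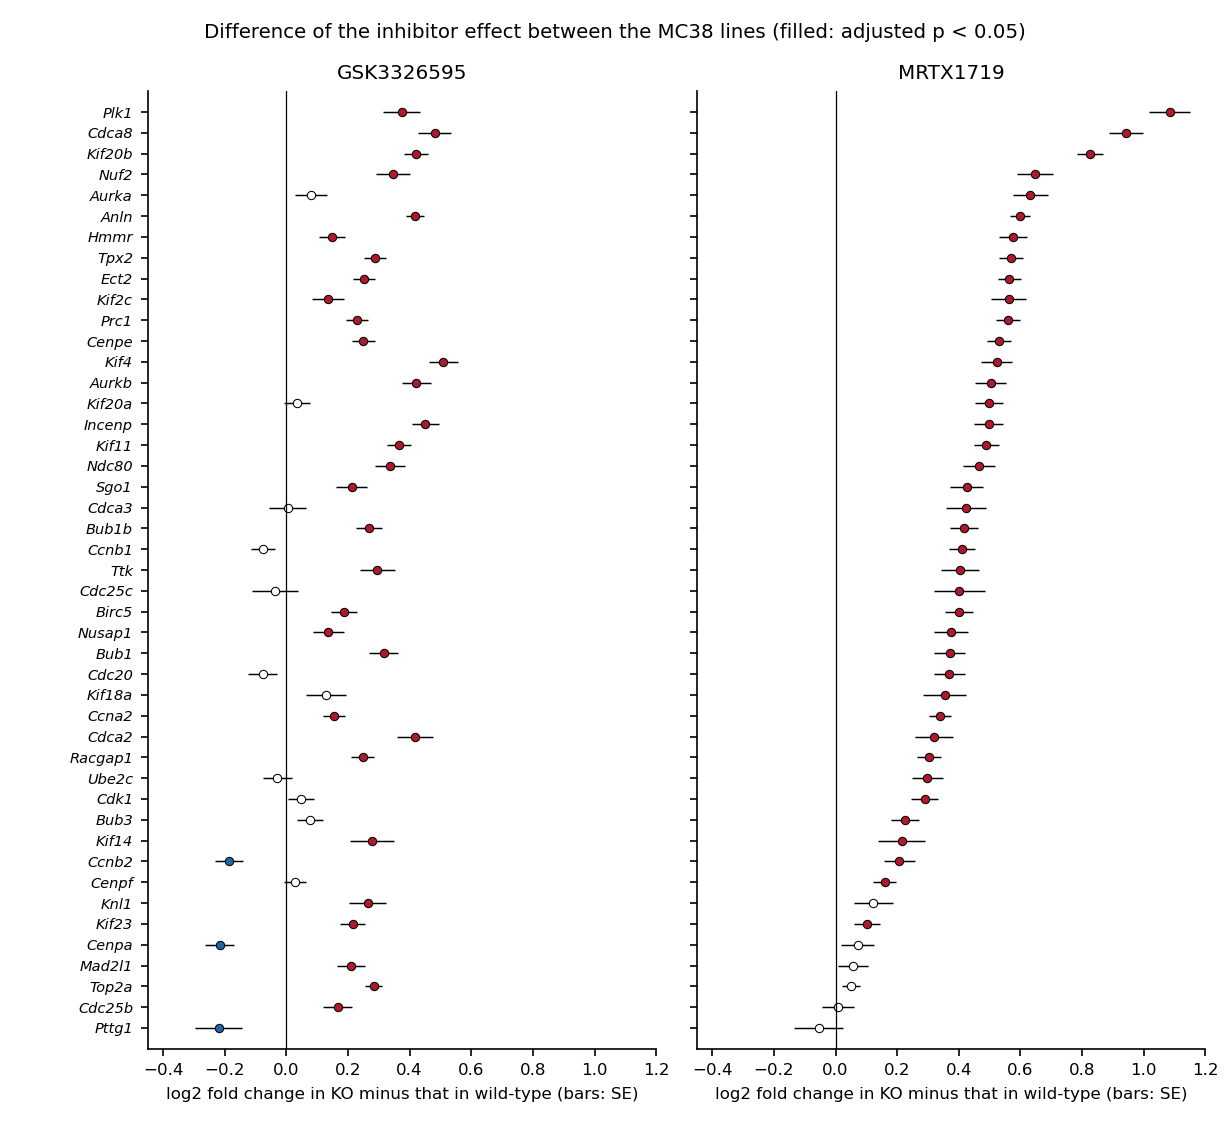
Difference of the log2 fold change of each inhibitor between KO and WT MC38 cells (horizontal axis, bars are SE) for the 45 mitosis genes, ordered by the MRTX1719 value; filled points passed the test. With MRTX1719 (right) Plk1, Cdca8 and Kif20b lie beyond 0.8, and with GSK3326595 (left) the values run from -0.22 to 0.51.

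The 2 inhibitors were also compared with each other at the same dose and time. In WT cells no member was higher with MRTX1719 than with GSK3326595 and 27 were lower, with 15.4% of all tested genes called higher and 14.6% lower. The median log2 difference was -0.14. At an unadjusted p under 0.05 edgeR had 1 member higher and 28 lower, and DESeq2 called 0 higher and 24 lower. The largest differences were in Cenpa (-0.44 ± 0.0384), Plk1 (-0.41 ± 0.0545), Ccnb2 (-0.41 ± 0.0389), Cdc20 (-0.38 ± 0.0385) and Kif20a (-0.38 ± 0.0359). Ccnb1 had a value of -0.29 ± 0.0315, from 128 ± 3.21 CPM with GSK3326595 (SD, n = 3) and 104 ± 2.31 CPM with MRTX1719 (n = 2). Ccnb1, Ccnb2, Cdc20 and Cenpa, which rose with GSK3326595 in WT cells, did not pass with MRTX1719 against DMSO, where their log2 fold changes were -0.04, -0.06, -0.09 and -0.02.

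In KO cells 23 members were higher with MRTX1719 than with GSK3326595 and 6 were lower, with 28.3% of all tested genes called higher and 24.9% lower. With upper quartile scaling the split was 16 higher and 9 lower. Cdca8 (0.32 ± 0.0331), Plk1 (0.30 ± 0.0324), Nuf2 (0.30 ± 0.0376), Kif20b (0.29 ± 0.0254) and Ect2 (0.25 ± 0.0234) had the largest positive values. For Plk1 the difference compares 114, 120.1 and 116 CPM with 96.8, 91.2 and 97.3 CPM, with no overlap. The 6 lower genes were Kif23 (-0.25 ± 0.0287), Knl1 (-0.21 ± 0.0404), Cdc25b (-0.19 ± 0.0347), Top2a (-0.18 ± 0.0194), Cenpa (-0.15 ± 0.0327) and Mad2l1 (-0.11 ± 0.0349). Cdk1 (0.06 ± 0.0294, adjusted p = 0.0867) did not pass. The comparisons of the 2 inhibitors with DMSO in a line share the DMSO libraries.

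Across the 6 MC38 groups the mean level was highest in KO cells with MRTX1719 for 29 of the 45 genes and in KO cells with GSK3326595 for 11, and it was lowest in WT cells with MRTX1719 for 29. These counts were not made over all tested genes, so whether they are unusual for the members is not known. The mean log2 CPM of the 45 genes was 6.22 to 6.24 in the libraries of WT cells with MRTX1719, 6.32 to 6.34 in WT cells with DMSO and 6.37 to 6.38 in WT cells with GSK3326595. In KO cells it was 6.61 to 6.63 with DMSO, 6.84 to 6.87 with GSK3326595 and 6.92 to 6.93 with MRTX1719. The libraries of the 6 groups did not overlap in this mean.

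In T cells both inhibitors raised more mitosis genes than they lowered. With GSK3326595 26 of the 45 rose, 5 fell and 14 did not pass the test, with a median log2 fold change of 0.18 over the 45 and 0.00 over all tested genes. Of all tested genes 26.6% were called higher and 26.2% lower. Birc5, Nuf2, Tpx2, Kif23 and Ccnb2 rose most, and Kif14, Anln, Ccnb1, Incenp and Cdca2 fell, of which DESeq2 did not call Kif14, Anln and Cdca2. Birc5, survivin, the passenger subunit that docks the complex on centromeres, went from 64.4, 67.3 and 66.9 CPM to 106, 103 and 105 CPM (0.66 ± 0.0459, adjusted p = 2.38e-23). Nuf2 went from 24.9, 23.9 and 23.1 CPM to 38.1, 36.4 and 39.05 CPM (0.66 ± 0.0685), and Kif23, which with Racgap1 forms the centralspindlin complex, from 41.8, 41.5 and 44.2 CPM to 65.6, 70.1 and 61.97 CPM (0.63 ± 0.0558). For all 3 genes every GSK3326595 library lay above every DMSO library.

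Among the kinases and cyclins of mitotic entry the calls in T cells were split. Plk1 was at 32.95, 28.8 and 31.7 CPM with DMSO and 36.6, 29.9 and 32.3 CPM with GSK3326595, which overlap (0.08 ± 0.0688, adjusted p = 0.333). Ccnb1 fell from 32.4, 36.7 and 33.6 CPM to 31.8, 28.3 and 28.4 CPM (-0.21 ± 0.0680, adjusted p = 0.00730), and this call was lost without replicate 2 of DMSO. Ccnb2 (0.57 ± 0.0673) and Ccna2 (0.42 ± 0.0605) rose. Cdk1 was at 68.6, 67.6 and 67.2 CPM and 62.5, 61.8 and 64.3 CPM, without overlap, but its adjusted p of 0.0577 missed the threshold (-0.11 ± 0.0498). Aurka rose from 14.8, 15.1 and 13.2 CPM to 19.6, 17.8 and 17.8 CPM (0.36 ± 0.0909). Cenpa stood at 62.02, 59.5 and 58.3 CPM against 53.5, 49.98 and 56.2 CPM with DMSO (0.17 ± 0.0529), and Bub3 at 66.1, 70.3 and 68.2 CPM against 57.6, 55.1 and 56.1 CPM (0.27 ± 0.0505). The call for Cenpa was also lost without replicate 2 of DMSO. Top2a, at 542, 516 and 520.5 CPM against 494, 510.5 and 532 CPM, overlapped (0.04 ± 0.0365, adjusted p = 0.385). All 5 spindle checkpoint genes rose, Mad2l1 among them (0.41 ± 0.0672).

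With MRTX1719 23 of the 45 rose in T cells, 3 fell and 19 did not pass, with a median log2 fold change of 0.13. Of all tested genes 18.9% were called higher and 18.5% lower. Birc5 rose most again, to 98.5, 101 and 92.6 CPM (0.56 ± 0.0465, adjusted p = 3.30e-18), followed by Kif23 (0.35 ± 0.0575), Cdca8 (0.32 ± 0.0460), Ttk (0.32 ± 0.0895) and Tpx2 (0.30 ± 0.0514). Cdca8 stood at 91.4, 94.3 and 90.4 CPM, above all DMSO libraries (73.2, 72.3 and 74.9 CPM). The 3 that fell were Kif14 (-0.29 ± 0.107), Pttg1 (-0.29 ± 0.101) and Incenp (-0.14 ± 0.0373), and DESeq2 called only Incenp lower. Aurka (19.1, 16.2 and 16.8 CPM, 0.27 ± 0.0928), Cenpa (61.04, 59.1 and 61.4 CPM, 0.18 ± 0.0532) and Top2a (528, 602 and 553 CPM, 0.13 ± 0.0365) rose. The Top2a libraries overlap those with DMSO. Leaving out replicate 1 of MRTX1719 or replicate 3 of DMSO ended the call for Aurka, and leaving out replicate 2 of MRTX1719 ended that for Top2a. Ccnb1 (33.7, 33.9 and 31.2 CPM, -0.05), Plk1 (32.8, 32.8 and 31.6 CPM, 0.05), Cdk1 (70.5, 66.6 and 63.6 CPM, -0.02) and Bub3 (59.8, 60.5 and 61.99 CPM, 0.11) did not pass, although all 3 Bub3 libraries lay above those with DMSO.

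Against each other in T cells, MRTX1719 left 16 members lower than GSK3326595 did and 5 higher, with 19.7% of all tested genes called lower and 19.3% higher. Nuf2 (-0.41 ± 0.0665), Tpx2 (-0.35 ± 0.0483), Kif20a (-0.34 ± 0.0720), Ccnb2 (-0.33 ± 0.0654) and Racgap1 (-0.29 ± 0.0488) had the largest negative values. The 5 that were higher were Hmmr (0.26 ± 0.0507), Sgo1 (0.22 ± 0.0838), Cdca8 (0.15 ± 0.0449), Cenpe (0.10 ± 0.0382) and Top2a (0.09 ± 0.0364), and DESeq2 did not call Sgo1 and Top2a. Hmmr, a spindle protein that binds hyaluronan, stood at 68.8, 63.3 and 64.1 CPM with DMSO, 59.4, 60.03 and 63.1 CPM with GSK3326595 and 72.1, 78.1 and 68.9 CPM with MRTX1719. The mean level of the 3 groups was highest with GSK3326595 for 26 of the 45 genes and lowest with DMSO for 28. Here too no such count was made over all tested genes. The mean log2 CPM of the 45 was 5.32 to 5.34 with DMSO, 5.5 to 5.51 with GSK3326595 and 5.43 to 5.44 with MRTX1719.

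The calls in T cells and KO MC38 cells, which share no libraries, are set side by side. With GSK3326595, 22 genes rose in both, 84.6% of the 26 that rose in T cells and 55% of the 40 in KO cells. As 40 of all 45 members rose in KO cells, the share among those that rose in T cells was near the share of all members, and nothing is read from it. The 5 that fell in T cells, Anln, Ccnb1, Cdca2, Incenp and Kif14, were also among these 40. With MRTX1719, 19 rose in both, 82.6% of the 23 in T cells and 48.7% of the 39 in KO cells, against 39 of all 45 members that rose there. Kif23, Mad2l1 and Top2a rose in T cells and fell in KO cells, where the Kif23 call was lost without replicate 2 of DMSO or replicate 1 of MRTX1719. No test compared the 2 kinds of cell, whose tables were normalized separately.

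Other lists were counted in T cells as well. Over all tested genes 26.6% were called higher and 26.2% lower with GSK3326595, and 18.9% and 18.5% with MRTX1719. Of the 32 G1/S genes, 19 rose and 3 fell with GSK3326595, and 14 rose and 2 fell with MRTX1719. Rpa2, a subunit of the protein that coats single-stranded DNA, rose most with GSK3326595 (0.71 ± 0.0477). The further mitosis genes were more mixed, with 35 of 71 higher and 15 lower with GSK3326595. With MRTX1719 18 were higher and 12 lower, near the shares over all tested genes. Mis18a, which prepares centromeres for CENP-A, had the highest value with GSK3326595 (0.85 ± 0.120) and Hjurp, the CENP-A chaperone, the lowest (-0.62 ± 0.0510). Of 14 APC/C subunits 9 rose and 2 fell with GSK3326595, and 10 rose and 1 fell with MRTX1719, with Cdc27 lower in both (-0.51 ± 0.0624 and -0.33 ± 0.0620). Wee1, the kinase that holds CDK1 inactive, fell with GSK3326595 (-0.72 ± 0.138) and with MRTX1719 (-0.47 ± 0.136). Fzr1, the APC/C activator of late mitosis and G1, had values of -0.22 ± 0.0489 and 0.02 ± 0.0485 in the same order. Cdkn1a did not pass with either, with values of -0.03 and 0.01 (adjusted p = 0.453 and 0.916). The T cell marker list summed to 3946 to 3970 CPM with DMSO, 5363 to 5379 CPM with GSK3326595 and 4395 to 4487 CPM with MRTX1719, moving in the same order as the mean of the mitosis genes. Ptprc, a leukocyte marker, did not follow that order. It stood at 1364 to 1431 CPM with DMSO and 2124 to 2255 CPM with GSK3326595. With MRTX1719 it stood at 1366 to 1388 CPM, within the range with DMSO. The part of the T cell, leukocyte and NK markers in the order of the mitosis genes was not tested.

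Of the 45 members, 12 share exon bases with a gene on the other strand in the GENCODE annotation, and Top2a shares 122 with a small RNA gene on its own strand. The library kit marks strand, per the labels, and the strand setting of the authors' counting is not given in the sources used here. Kif20a overlaps Cdc23 over 1271 exon bases, Prc1 overlaps Rccd1 over 911, Kif4 overlaps Pdzd11 over 832, Cdc25c overlaps Gm3550 over 623, Ube2c overlaps Tnnc2 over 592 and Ccna2 overlaps Exosc9 over 510. The overlap is shorter for Cdca8 (232 bases), Nusap1 (172), Plk1 (156), Cdc25b (92), Cdc20 (53) and Kif18a (11). Reads of such a pair may be shared or split, so the values of these members are less certain. Near-identical copies of Ccnb1, Cdc20, Mad2l1 and Racgap1 had mean counts of 0 to 1 per library in the deposited tables, so few counts had gone to them.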

How the data were processed

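Raw counts per gene for 17 MC38 libraries and 9 T cell libraries were deposited by the authors in 2 tables, beside tables of normalized signal, which the authors made by dividing each library's counts by 1 size factor (checked against the raw counts). TopHat2 2.0.10, Bowtie2 2.1.0 and DESeq 1.18.0 with build GRCm39 were named, per the submitters' processing notes. For the counter, the annotation and the strand setting, the entry is "not given in the sources used here". Libraries came from poly(A) RNA with a directional kit, per the labels' protocols.

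The normalized tables served only to match the 45 names. Raw counts were fitted with edgeR 4.0.16 (R 4.3.3): TMM scaling, filterByExpr by group, a robust quasi-likelihood test, 1 fit per table over all its groups, and Benjamini-Hochberg adjustment over all tested genes with a threshold of 0.05. Groups came from the labels, and 12 comparisons were made. The standard error is the log2 fold change divided by the square root of its F. CPM use TMM-scaled totals.

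Alternatives were RLE and upper quartile scaling, no filter on low counts, DESeq2 1.42.0, a replicate block, only the groups compared, and leaving out each library. The procedure was tested on simulated data. Same-numbered libraries did not deviate together (r from -0.0441 to 0.028 in MC38 and from -0.0337 to 0.0371 in T cells), so no pairing was used.

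The named genes were Ccnb1, Cdk1, Plk1, Aurka, Cenpa, Top2a and Bub3, up to 5 members with the largest called change in each direction of a comparison, members not called where there were 5 or fewer, up to 3 genes from each other list, and Foxm1, Mybl2, Wee1, Cdkn1a and Fzr1. Further members were named after their values were seen. The members and gene lists were chosen with earlier results of these data known. Promoter sequences are from RefSeq's table of GRCm38.p6, and no coordinates were converted between builds; 1 sequence is not reported here. Counting error at the depths given is part of the spread between libraries. Replicates differed by more than sampling noise (chi-square per gene 1.4 to 2.84 in MC38 and 1.96 to 3.75 in T cells).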

Additional observations from a re-analysis of the deposited data

Results flagged for a closer look

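The effect of an inhibitor differed between KO and WT cells, by edgeR's interaction test, for 39 of the 45 genes with MRTX1719 and for 34 with GSK3326595. Over all tested genes, 30.3% were called higher and 27.9% lower with MRTX1719, and 22% and 20.2% with GSK3326595. Among the genes named in the report, the difference of log2 fold changes with MRTX1719 was 1.08 for Plk1, 0.94 for Cdca8, 0.83 for Kif20b, 0.65 for Nuf2 and 0.63 for Aurka. It was 0.41 for Ccnb1, 0.29 for Cdk1 and 0.23 for Bub3. With GSK3326595 it was 0.51 for Kif4, 0.48 for Cdca8, 0.45 for Incenp, 0.42 for Aurkb, 0.42 for Kif20b, 0.37 for Plk1 and 0.28 for Top2a. It was negative for Pttg1 (-0.22), Cenpa (-0.22) and Ccnb2 (-0.19). WT cells with MRTX1719 had 2 libraries and all other groups 3, so no group was large enough to be searched for single outlying libraries.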

How the results depend on the processing

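The number of members called stayed within 1.5 times the reported one in all 12 comparisons under RLE scaling, upper quartile scaling, no filter, DESeq2, the replicate block and only the groups compared. The exception over all settings was MRTX1719 against DMSO in WT cells (22 called), where leaving out 1 library gave 8 to 16 members, with 8 without replicate 1 and 14 without replicate 3 of MRTX1719. With a replicate block the counts were 39 for KO against WT, 26 and 41 for GSK3326595 in WT and KO, 18 and 43 for MRTX1719 in WT and KO, and 31 and 26 in T cells; only 4 of 17 MC38 libraries and 4 of 9 T cell libraries correlated best with their own number. Over all tested genes upper quartile scaling shifted the median, for the MRTX1719 interaction from 0.0137 to -0.0798. It also moved the split of calls and turned the larger side. The split became 3577 higher and 2502 lower for GSK3326595 in WT cells, 2276 and 4060 for its interaction, and 3528 and 5069 for that of MRTX1719. For the 2 inhibitors against each other it became 1780 and 2704 in WT and 3355 and 4467 in KO cells. For KO against WT it became 6109 higher and 4724 lower. It was 3375 and 4499 for GSK3326595 in KO cells, 582 and 538 for MRTX1719 in WT cells, and 4436 and 5942 for MRTX1719 in KO cells. In T cells it was 3519 and 3763 with GSK3326595 and 2360 and 2752 with MRTX1719.

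The values that changed sign were all of genes not called. With upper quartile scaling they were Bub3 (-0.04) and Cdc25b (-0.01) with GSK3326595 in KO cells, Cenpa (-0.04) with MRTX1719 in KO cells, Cdk1 (-0.02) in the GSK3326595 interaction, Cenpa (-0.02) and Top2a (-0.04) in that of MRTX1719, and Bub3 (-0.02) between the inhibitors in WT cells, which was -0.0 with the replicate block. Bub3 with GSK3326595 in KO cells was also -0.01 without the filter and -0.01 with only the groups compared. Leaving out 1 library gave ranges across 0 for Bub3 (-0.02 to 0.03) and Mad2l1 (-0.02 to 0.02) with GSK3326595 in KO cells, Aurka (-0.01 to 0.04) and Cenpa (-0.04 to 0.0) with MRTX1719 in WT cells, Bub3 between the inhibitors in WT cells (-0.02 to 0.03), and in T cells Plk1 with GSK3326595 (-0.0 to 0.14), Cdk1 with MRTX1719 (-0.05 to 0.02), and Plk1 (-0.09 to 0.05) and Cenpa (-0.01 to 0.04) between the inhibitors. The cause was not tested. Of the values of single named genes under all alternatives, 1985 kept direction and call, 61 lost the call, 14 gained one and these 21 changed sign.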
